A study of Heterocephalus glaber with 9 samples.

Results

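The genes described are those of the core transforming growth factor beta (TGF-beta) pathway in naked mole-rat liver, namely the ligands TGFB1, TGFB2 and TGFB3, the receptors TGFBR1 and TGFBR2, the signal transducers SMAD2, SMAD3, SMAD4 and SMAD7, and the target gene CTGF. They were chosen by symbol, without use of their values, and all 10 were found among the 16339 rows of the count table. The livers came from 9 male animals of Heterocephalus glaber, a rodent of great longevity. The young group held 6 animals of 2.7, 2.8, 3.4, 3.7, 3.8 and 4.1 years, and the old group 3 non-breeders, called A, B and C, of 20, 30 and 20 years by their sample labels. The study's methods give a minimum age of the old animals that lies above the labelled age of A and C. The labels name no treatment, the reproductive status of the young animals is not given in the labels, and each animal gave 1 library of polyadenylated RNA. The comparison asks how expression differs between old and young liver in a species that ages slowly.

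TGF-beta is secreted in a latent form that is held in the extracellular matrix and must be released before it can act. The active ligand binds TGFBR2, which then phosphorylates TGFBR1, and this kinase phosphorylates SMAD2 and SMAD3. These join SMAD4 and enter the nucleus to regulate genes, among them SMAD7, whose product blocks the receptor in a feedback loop. In the liver the pathway is best known for driving stellate cells to become collagen-producing myofibroblasts, for restraining hepatocyte growth and for damping immune cells.

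The libraries held 14541856 to 20464409 counts in young and 15176226 to 20048731 in old animals. In CPM (counts relative to the size of the library, scaled by the TMM method of edgeR) the markers of hepatocytes, such as albumin, were present in every liver. Of the 12277 genes that passed the filter on low counts, 15.4% were called by edgeR at a false discovery rate (FDR) of 0.1, the study's threshold, 11.7% as higher and 3.65% as lower in old livers. Of the livers, 2 stood apart from their own age group. The share of albumin among all counts was 1.41% in old liver A, against 7.69% in B and 6.99% in C, and 7.86% in the 4.1-year liver, against 10.8% to 14.8% in the other 5 young livers. The summed CPM of 14 hepatocyte markers was 46832 in A, against 146187 and 123426 in B and C and 160271 to 271131 in the young livers. Results are therefore given with and without these livers. Only the young livers carry a mark of re-use in their sample labels, and the run prefix in the description of the library differs between young and old, so age and the origin of the libraries cannot be told apart.

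By edgeR 1 member, SMAD7, the inhibitory SMAD, was called higher in old livers and none was called lower. These counts are near the 11.7% higher and 3.65% lower over all genes tested. The call of SMAD7 lay at the threshold itself (FDR = 0.0999 from edgeR) and was made in 8 of 18 alternatives. Of the 10 members, all of which passed the filter, 1 rose, 0 fell and 9 did not pass the threshold by edgeR (FDR = 0.111 to 0.941), against the 15.4% of all genes tested that were called. At an unadjusted p under 0.05 there were 3 members, SMAD7 and SMAD3 on the higher and TGFBR2 on the lower side. The log2 fold change of old against young was negative in 7 members and positive in 3, with a median of -0.27, while the median over all genes tested was 0.02. Old and young livers overlapped in every member (0 of 10 without overlap, against 17.8% of all genes tested). With DESeq2 1 member was lower, and with limma voom 2 were, as TGFBR2 passed with both and SMAD2 with voom.

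**Figure D1:**
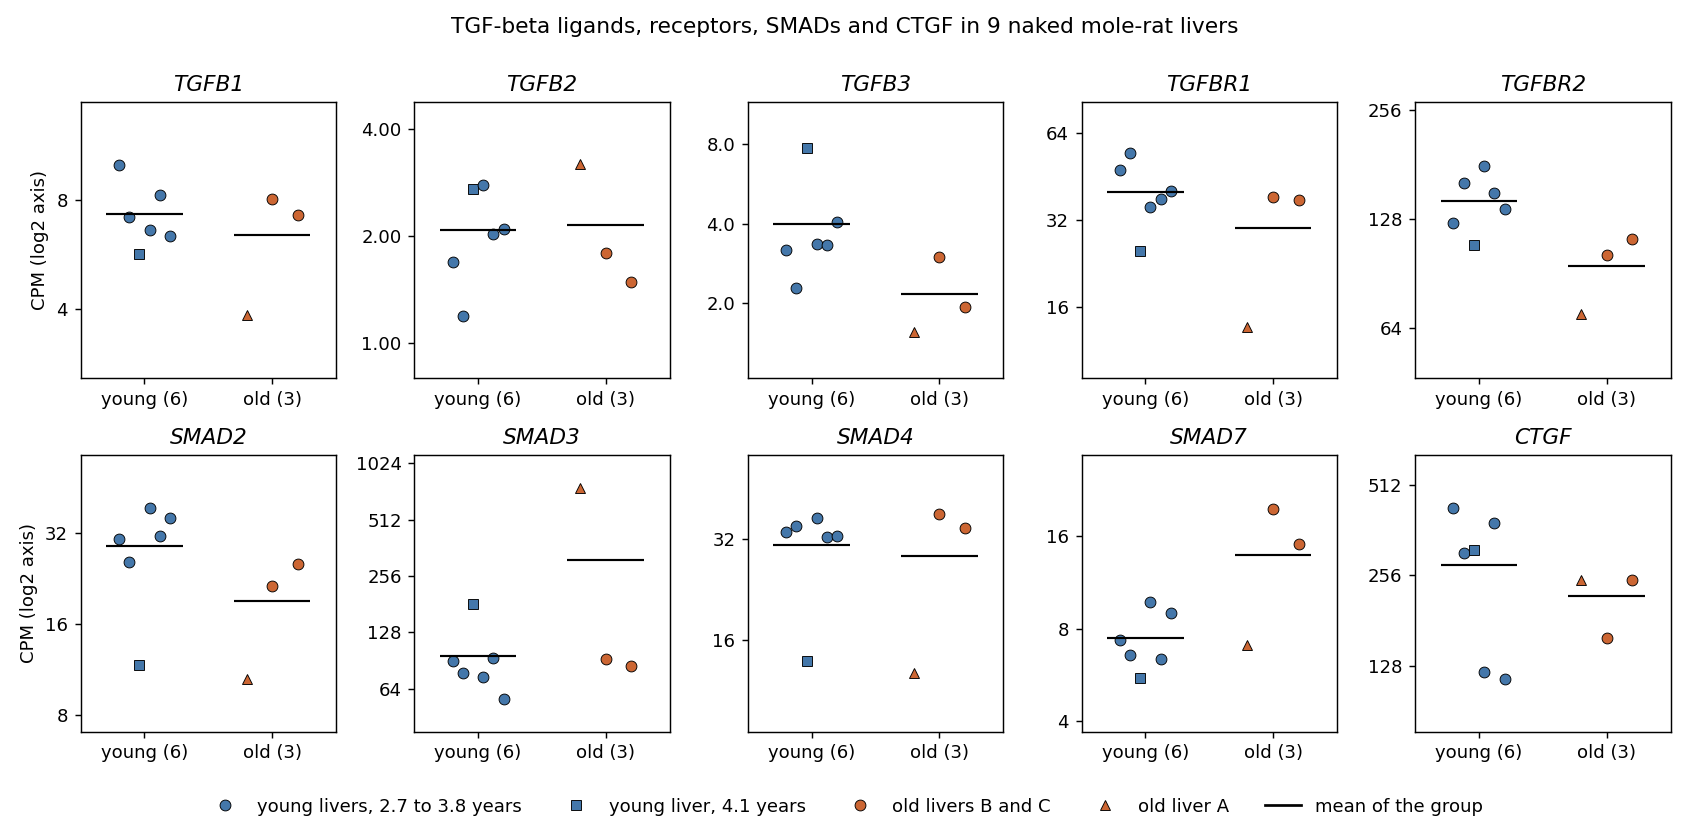
CPM of each of the 10 members, on a log2 axis, in 6 young (blue) and 3 old livers (orange), with 1 point per animal and a line at the mean of the group. The square is the 4.1-year young liver and the triangle old liver A, which has 754 CPM of SMAD3, and SMAD7 is higher in old livers B and C than in any young liver.

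Among the ligands, TGFB1, the isoform best known from platelets, macrophages and fibrosis, had 5.68, 6.90 and 10.01 CPM as the lowest, median and highest young value. Old livers B and C lay within this range at 8.07 and 7.28 CPM, and A lay below it at 3.86 CPM. Old against young, it differed by -0.20 on the log2 scale (standard error 0.30, 95% interval -0.85 to 0.45, FDR = 0.667 from edgeR) and by 0.062 without liver A. For this ligand the data thus show no direction that holds in all old livers, and an increase beyond 0.45 or a decrease beyond 0.85 on the log2 scale lies outside the interval.

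TGFB2, the isoform that needs the co-receptor betaglycan for tight binding, was the most thinly covered member, with 23 to 57 counts per liver. It had 1.196, 2.06 and 2.78 CPM in the young livers and 3.19, 1.79 and 1.48 CPM in old livers A, B and C. Liver A was thus above all young livers and the other two old livers were among the lower ones. Its log2 fold change was 0.05 (95% interval -0.77 to 0.86, FDR = 0.941 from edgeR), and -0.34 without A. The coefficient of variation among young livers was 28.9%, of which counting alone would give 17.2%.

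TGFB3, the isoform known from palate fusion and scarless healing, had the lowest mean in old relative to young livers of the 3 ligands. Young livers had 2.29, 3.35 and 7.73 CPM, the highest of them in the 4.1-year liver and 4.06 in the next. Old livers had 1.56 CPM in A, 3.00 in B and 1.95 in C, so A and C lay below all young livers and B among them. The log2 fold change was -0.87 (standard error 0.42, 95% interval -1.79 to 0.05, FDR = 0.188 from edgeR), and -0.57 without the 4.1-year liver, -0.68 without A and -0.38 without both. None of the 18 alternatives brought TGFB3 past the threshold (FDR = 0.133 to 0.468 from edgeR, DESeq2 or limma).

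TGFBR2, the receptor kinase that binds the ligand, was lower in each old liver than in 5 of the 6 young livers. Young livers had 109, 144 and 180 CPM, and old livers 70.0 CPM in A, 102 in B and 113 in C. The only overlap was that the 4.1-year liver, the lowest young one, lay between B and C. Its log2 fold change of -0.60 (standard error 0.25, 95% interval -1.15 to -0.05) did not pass by edgeR (FDR = 0.141). It did pass without the 4.1-year liver (-0.67, FDR = 0.0828 from edgeR), without this liver and A (-0.49, FDR = 0.0646 from edgeR), with DESeq2 (FDR = 0.0663) and with limma voom (FDR = 0.0194), but not without A alone (-0.42, FDR = 0.330 from edgeR).

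TGFBR1, the kinase that phosphorylates SMAD2 and SMAD3, had 25.0, 38.9 and 54.6 CPM in young livers. Old livers B and C were within this range at 38.5 and 37.5 CPM, and A was below it at 13.6 CPM. Its log2 fold change was -0.42 (95% interval -1.19 to 0.35, FDR = 0.428 from edgeR) and shrank to -0.08 without A. Within a library the ratio of TGFBR1 to TGFBR2 counts, which does not depend on scaling between libraries, had a log2 mean of -1.87 ± 0.358 (SD, n = 6) in young and -1.78 ± 0.506 (SD, n = 3) in old livers. This difference of 0.08 was smaller than the spread among livers (exact permutation test over 84 splits, two-sided p = 0.857, adjusted p = 0.917 over 6 ratios).

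SMAD3, which binds DNA and carries the signal to many matrix genes, was the member with the widest range. Young livers had 56.5, 83.7 and 180 CPM, the highest of them in the 4.1-year liver, and old livers 754 CPM in A, 92.2 in B and 84.1 in C. Liver A thus had 8.56 times the mean of B and C, and the 4.1-year liver 2.30 times that of the other 5 young livers, while B and C were among the young livers. In A this rested on 13497 counts, against 807 to 2728 in the other 8 livers, so counting error is small beside the difference. With all livers its log2 fold change was 1.70 (95% interval 0.32 to 3.09, FDR = 0.111 from edgeR) and it turned to -0.11 without A (FDR = 0.910 from edgeR). It was 0.17 without A and the 4.1-year liver, and passed only without B, without C or without the 4.1-year liver (2.13, 2.15 and 1.99, FDR = 0.0545, 0.0540 and 0.0748 from edgeR). DESeq2 gave neither a p-value nor an adjusted p for this gene. Of the 12277 genes tested, 30 (0.244%) had a higher log2 ratio of A to B and C than SMAD3.

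SMAD2, the partner of SMAD3 that does not bind DNA itself in its main form, went the other way in the same animals. Young livers had 11.7, 30.9 and 38.6 CPM, with the 4.1-year liver at 11.7 and the next at 25.7, and old livers had 10.6 CPM in A, 21.4 in B and 25.2 in C. All 3 old livers lay below the other 5 young livers, and the 4.1-year liver lay among the old. The log2 fold change was -0.60 (standard error 0.38, 95% interval -1.44 to 0.24, FDR = 0.304 from edgeR). It was -0.47 without A and the 4.1-year liver, where it passed (FDR = 0.0839 from edgeR), and -0.31 without A (FDR = 0.713 from edgeR). With limma voom it also passed (-0.42, FDR = 0.0748).

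The log2 ratio of SMAD2 to SMAD3 counts showed the divergence most clearly. It was -6.15 in A and -3.94 in the 4.1-year liver, against -2.10 and -1.74 in B and C and -1.59 to -0.66 in the other 5 young livers. Between the age groups the ratio differed by -1.62 (exact permutation test, two-sided p = 0.143, adjusted p = 0.429 over 6 ratios), by -0.21 without A and by -0.66 without A and the 4.1-year liver, with means of -1.71 ± 1.16 (SD, n = 6) in young and -3.33 ± 2.45 (SD, n = 3) in old livers. Read counts of different genes also depend on transcript length, so the ratios are compared between livers and not read as ratios of molecules.

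SMAD4, the shared partner of all signal-carrying SMADs, had 13.8, 33.3 and 37.0 CPM in young livers. Old liver A had 12.7 CPM, B 38.2 and C 34.6. Apart from the 4.1-year liver and A, the other 7 livers of either age lay between 32.4 and 38.2 CPM. Its log2 fold change of -0.11 (95% interval -0.95 to 0.72, FDR = 0.859 from edgeR) became 0.24 without A and 0.090 without both livers.

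SMAD7 had 5.55, 6.96 and 9.81 CPM in young livers, and 7.10 CPM in A, 19.6 in B and 15.1 in C. Livers B and C were above all young livers, whereas A was among them. Its mean was 1.87 times as high in old livers, with 13.9 ± 6.33 CPM (SD, n = 3) against 7.45 ± 1.65 CPM (SD, n = 6), a log2 fold change of 0.90 (standard error 0.31, 95% interval 0.21 to 1.60, FDR = 0.0999 from edgeR). This lay at the threshold itself, and the call was lost without any 1 young liver (FDR = 0.104 to 0.179 from edgeR), without B (0.57, FDR = 0.268 from edgeR) and without C (0.84, FDR = 0.160 from edgeR). Without A the log2 fold change was 1.22 (FDR = 0.0567 from edgeR), and without A and the 4.1-year liver 1.15 (standard error 0.20, FDR = 0.00931 from edgeR). It passed with DESeq2 (0.90, FDR = 0.0574) and with limma voom (1.17, FDR = 0.000859), but not with upper quartile scaling (FDR = 0.135 from edgeR) or without a filter on low counts (FDR = 0.120 from edgeR). Its sign was positive in all 18 alternatives.

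Relative to SMAD4 within the same library, SMAD7 was higher in every old liver than in any young one. The log2 ratio of SMAD7 to SMAD4 counts was -0.84 in A, -0.96 in B and -1.19 in C, against -2.41 to -1.31 in the young livers, where the 4.1-year liver was highest and the next was at -1.86. The means were -0.998 ± 0.182 (SD, n = 3) and -2.01 ± 0.407 (SD, n = 6), a difference of 1.01 (exact permutation test, two-sided p = 0.0119, the smallest that 84 splits can give). Adjusted over the 6 ratios it was above the 0.05 set for ratios (p = 0.0714, exact permutation test). With 84 splits, 1 ratio alone cannot reach a lower adjusted value, so this threshold could not be met without a second low ratio. In A the ratio was high with SMAD7 among the young values and SMAD4 below all of them, and in B and C with SMAD7 above and SMAD4 among or above the young values.

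**Figure D2:**
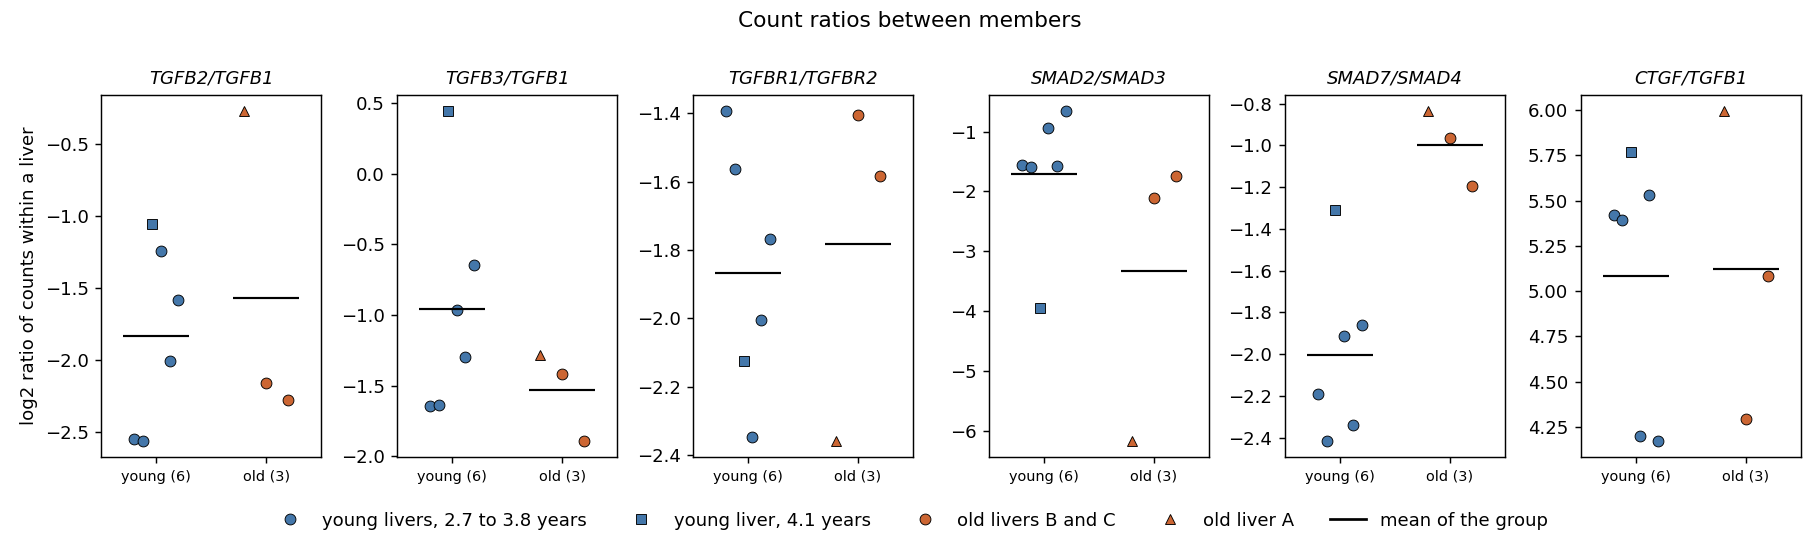
Log2 ratio of counts between pairs of members within each of the 9 livers, with symbols as in the plot of CPM by liver and a line at the mean of each group. SMAD7/SMAD4 is the only ratio of the 6 whose old livers (-1.19 to -0.84) lie apart from all young livers (-2.41 to -1.31), and SMAD2/SMAD3 is lowest in old liver A and next in the 4.1-year liver.

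CTGF, a secreted matrix protein induced by TGF-beta and by stretch-activated YAP, varied widely among the young livers although its counts were high (1651 to 8639 per liver). It had 116, 307 and 430 CPM in young livers, and 248, 158 and 248 CPM in A, B and C, all 3 within the young range. The coefficient of variation of the young livers was 47.4%, against 1.46% from counting alone. With 1 library per animal, spread between animals and between library preparations cannot be told apart. The log2 fold change was -0.35 (95% interval -1.31 to 0.62, FDR = 0.607 from edgeR). Relative to TGFB1 the counts of CTGF differed by 0.04 on the log2 scale between age groups (exact permutation test, two-sided p = 0.917, adjusted p = 0.917), those of TGFB3 by -0.57 (exact permutation test, p = 0.298, adjusted p = 0.595) and those of TGFB2 by 0.26 (exact permutation test, p = 0.667, adjusted p = 0.917).

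Across members, A and the 4.1-year liver deviated from their own age groups in the same direction in 9 of 10 genes, TGFB3 being the exception, against 66.0% of all genes tested. Both were the lowest of their groups in TGFB1, TGFBR1, TGFBR2, SMAD2, SMAD4 and SMAD7 (6 of 10 members, against 24.6% of all genes tested), and both the highest in SMAD3 (1 member, against 22.8% of all genes tested). In A, SMAD4 was at 0.348, TGFBR1 at 0.359 and SMAD2 at 0.453 times the mean of B and C, and in the 4.1-year liver they were at 0.403, 0.580 and 0.361 times that of the other young livers. These livers also shared a high share of counts for MTRNR2L4, a gene resembling mitochondrial ribosomal RNA, of 10.1% and 11.9%, against 2.43% to 4.17% in the other 7. Its part, and that of RNA quality, in the members' pattern was not tested.

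**Figure D3:**
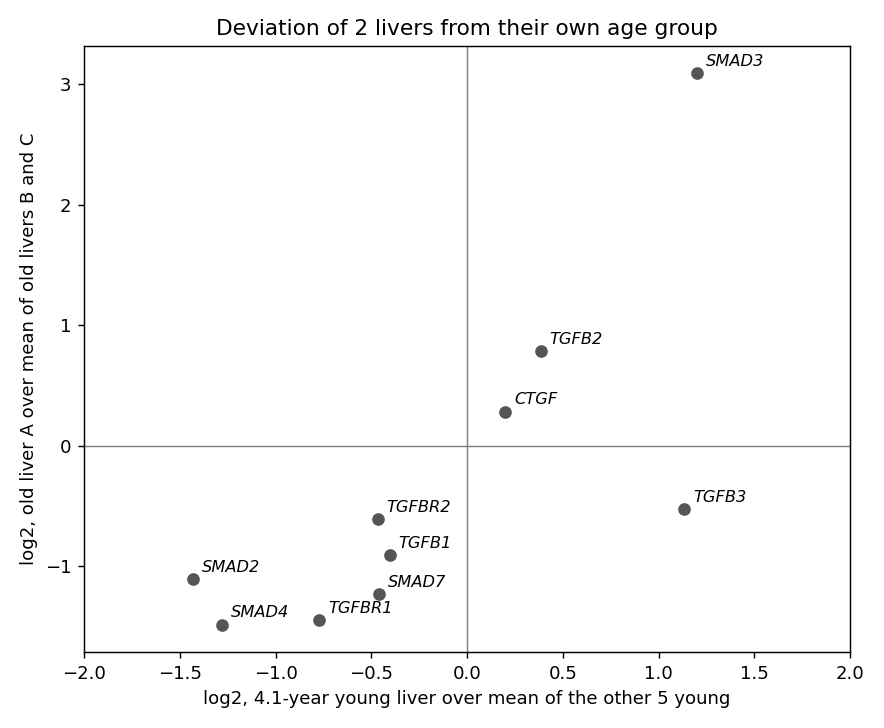
Log2 deviation of the 4.1-year liver from the mean of the other 5 young livers (x axis) and of old liver A from the mean of B and C (y axis), 1 point per member, from CPM with 0.5 added. SMAD3 lies high on both axes (1.199 and 3.09), SMAD4, SMAD2 and TGFBR1 lie low on both, and TGFB3 is high in the 4.1-year liver (1.13) and low in A (-0.53).

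**Figure D4:**
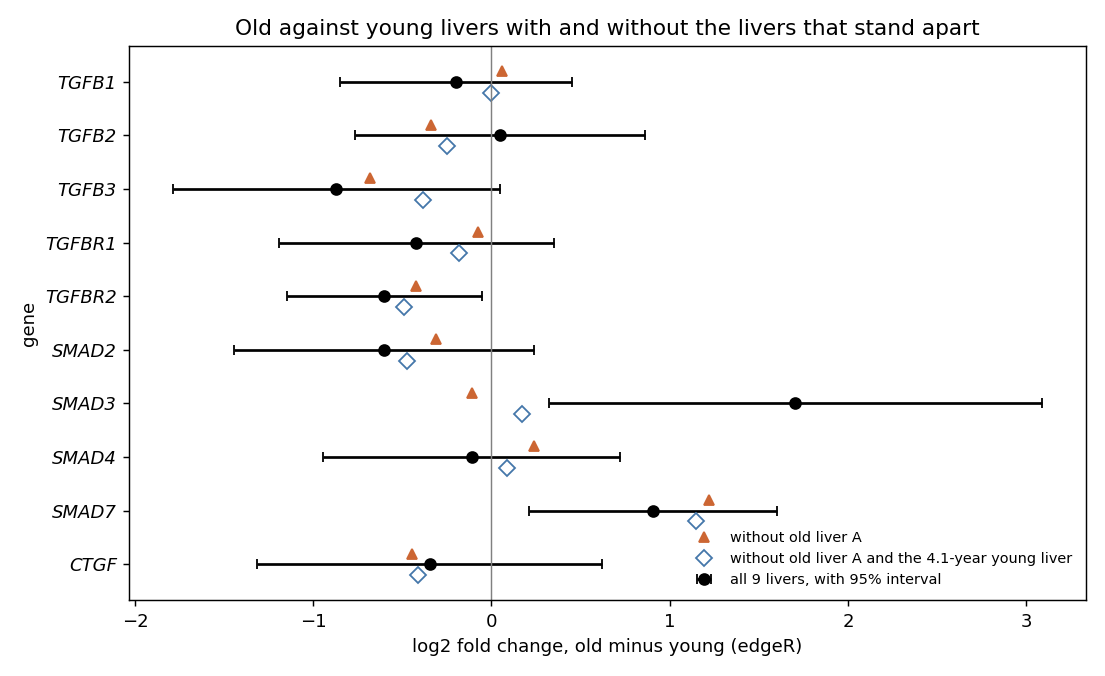
Log2 fold change of old against young livers for each member from edgeR (black, with 95% interval), without old liver A (triangles) and without A and the 4.1-year young liver (diamonds). SMAD3 moves from 1.70 to -0.11 without A, and SMAD7 from 0.90 to 1.22.

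In whole liver the receptors and ligands come from several cell types, and for bulk RNA a smaller number of cells of a type and less RNA per cell cannot be told apart. Over all genes tested 3.65% fell and 11.7% rose, the shares to set beside the counts of markers. Of 15 markers of stellate cells and fibroblasts that were tested, 4 fell (COL3A1, LRAT, RELN and RGS5), none rose and 14 had a negative log2 fold change. Their summed CPM was 221 in A, 577 in B and 510 in C, against 480 to 623 in the young livers. LRAT, which stores retinol in resting stellate cells, went from 13.8 ± 4.39 to 3.58 ± 2.13 CPM (SD, n = 6 and n = 3, log2 fold change -1.94, FDR = 0.0478 from edgeR), while DES, the muscle-type filament of these cells, named after its values were seen, had 15.3 to 27.4 CPM in young and 17.8 to 22.2 CPM in old livers. The macrophage list had 112 CPM in A, 584 in B and 525 in C against 436 to 534 in the young livers. Of its 10 tested markers 1 fell, MPEG1, which had only 3 to 27 counts per liver. For the endothelial list the sums were 1803, 719 and 746 against 429 to 762 CPM, with 3 of 12 markers higher (CLEC4G, STAB1 and VWF) and 1 lower (PECAM1). No marker of these 3 lists was at 0 in all livers. LRAT, STAB1, VWF, RELN, RGS5, MPEG1, PECAM1 and CLEC4G each lost the call without at least 3 of the livers taken singly, A among them in all but LRAT, whereas COL3A1 kept it without any of them. Of the tested markers of cholangiocytes 0 of 7 passed, of those of lymphocytes 1 of 7 (NKG7, higher), and of those of platelets and erythroid cells 2 of 4 (ITGA2B higher and ALAS2 lower). ITGA2B, with 9 to 71 counts per liver, lost the call without any of 6 livers, A among them (FDR = 0.118 to 0.279 from edgeR), and NKG7 and ALAS2 kept it without any 1 liver. The part of these cell types in the values of the ligands and receptors was not tested.

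Around the core, 153 of 186 listed genes of the wider pathway and its branches were tested. Of these 17 were higher and 10 lower in old livers, 17.6% in all, near the 15.4% of all genes. Their median log2 fold change was 0.02, equal to that of all genes. These counts moved with the liver left out, as did those over all genes, where 1437 higher became 125 without the 2.7-year liver. Without A there were 6 higher and 6 lower, without the 2.7, 2.8, 3.4, 3.7 and 3.8-year liver 1, 2, 10, 3 and 4 higher and 4, 4, 7, 5 and 5 lower, without the 4.1-year liver 23 and 15, without B 21 and 13, and without C 21 and 9. Many calls lost without a young liver moved only slightly past the threshold, as BGN without the 2.7-year liver (-1.21, FDR = 0.108 from edgeR). Of the 27 genes called, 16 lost the call without A, and 5 kept it in all 9 fits that left out 1 liver, namely ID1, BMP2, BMP7, FSTL1 and COL3A1. Old and young livers did not overlap in 22 of the 27, against 17.8% of all genes tested, but called genes are bound to show this more often. The counts of each list below stand beside 11.7% higher and 3.65% lower over all genes tested.

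**Figure D5:**
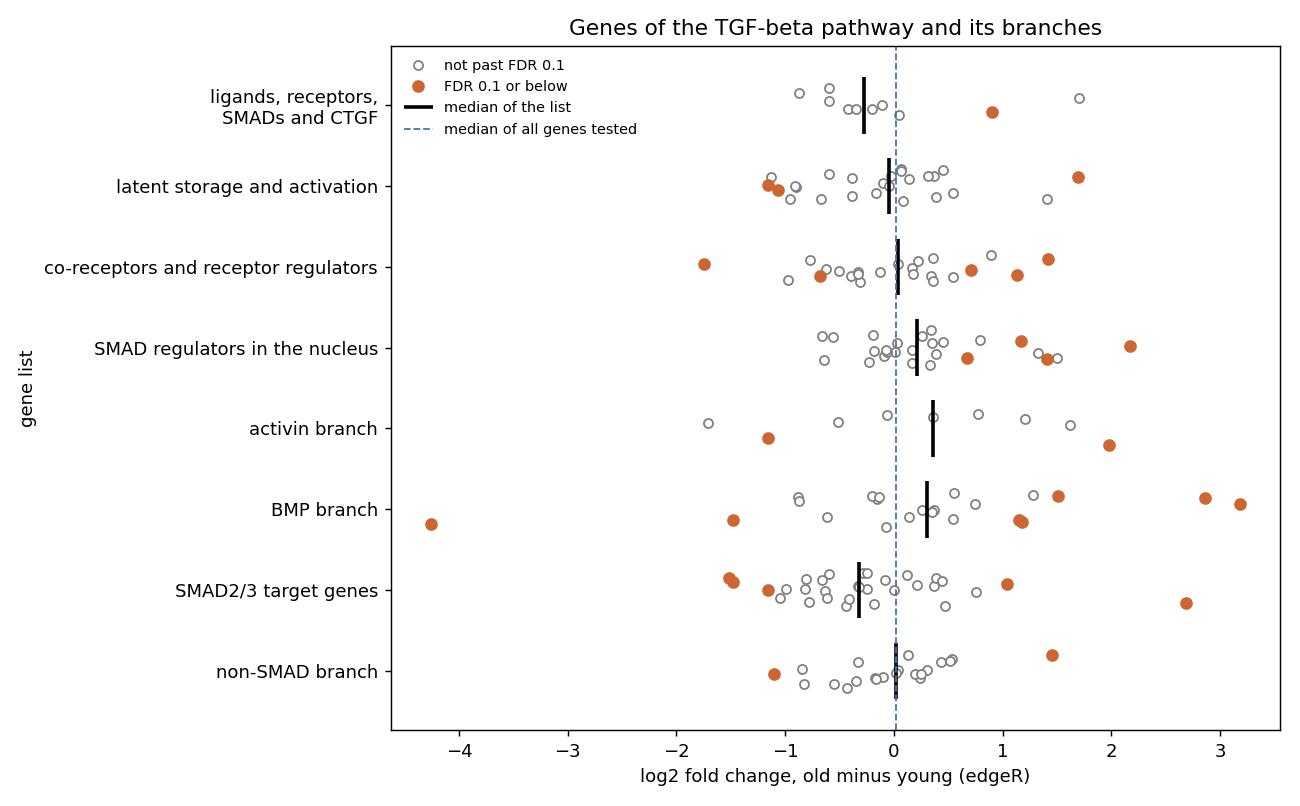
Log2 fold change of old against young livers for the tested genes of 8 lists, filled where FDR is 0.1 or below by edgeR, with a bar at the median of each list and a dashed line at the median of all genes tested (0.02). The BMP list holds the widest span, from BMP7 (-4.26) to CHRD (3.18).

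The BMP branch, in which related ligands signal through SMAD1, SMAD5 and SMAD9, held the largest single changes of the wider pathway. ID1 and ID3, repressors of differentiation that are classical targets of BMP signals, were both higher. ID1 had 2.19, 4.64 and 10.8 CPM in young and 26.0, 51.6 and 36.3 CPM in old livers A, B and C, all of the latter above every young liver (log2 fold change 2.86 with a standard error of 0.43, FDR = 0.0217 from edgeR). ID3 had 25.4, 38.4 and 59.8 CPM against 74.4, 121 and 72.0 CPM (1.18, FDR = 0.0522 from edgeR). The ligands BMP2 and BMP7 moved oppositely to these targets. BMP2 had 13.7, 15.6 and 23.9 CPM in young and 5.42, 6.995 and 6.68 CPM in old livers (-1.48, standard error 0.28, FDR = 0.0376 from edgeR), and BMP7 had 2.84, 7.39 and 8.66 against 0.391, 0.628 and 0 CPM (-4.26, FDR = 0.0347 from edgeR). As the old livers held so few counts of BMP7, its fitted value moved to -5.12 without B, to -3.67 without C and to -6.00 with limma voom, and it was called in each.

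Of the BMP list 5 genes rose, 2 fell and 15 of 22 did not pass, with a median of 0.30, beside 11.7% higher and 3.65% lower over all genes tested. CHRD, an antagonist that sequesters BMPs, rose by 3.18 (FDR = 0.0510 from edgeR), but by 1.01 without A, which had 932 CPM against 77.2 and 83.5 in B and C, and was then not called (FDR = 0.392 from edgeR). Without any of 4 young livers it was not called either (FDR = 0.108 to 0.115 from edgeR), and DESeq2 gave no p-value for it. BMP5 (1.15) and GDF15 (1.51), a stress-induced hormone, also passed (FDR = 0.0738 and 0.0784 from edgeR). Both were thinly covered, with 8 to 44 counts per liver for BMP5 and 3 to 30 for GDF15. They lost the call without any of 6 livers for BMP5 and 7 for GDF15, A among them. GDF15 is counted here by its place in the list and not as a ligand that signals through SMAD1, SMAD5 and SMAD9. ID3 lost it without the 2.7, 2.8 or 3.7-year liver (FDR = 0.106 to 0.118 from edgeR). SMAD1 and the inhibitory SMAD6, named after their values were seen, had log2 fold changes of 0.14 and -0.07 (FDR = 0.843 and 0.854 from edgeR).

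In the activin branch, which like TGF-beta acts through SMAD2 and SMAD3, INHBA rose and FSTL1 fell among 9 genes tested. INHBA, the subunit of activin A, had 1.74, 5.63 and 11.4 CPM in young and 11.7, 30.3 and 29.2 CPM in old livers A, B and C (log2 fold change 1.98 with a standard error of 0.47, FDR = 0.0473 from edgeR). As for SMAD7, A was the lowest old liver, here just above the highest young one. Its call was lost without the 2.7 or the 2.8-year liver (FDR = 0.108 and 0.102 from edgeR). FSTL1, a secreted glycoprotein that binds TGF-beta family ligands, had 21.9 to 28.4 CPM in young and 8.66, 12.8 and 13.4 CPM in old livers (-1.15, standard error 0.22, FDR = 0.0376 from edgeR), and kept the call without any 1 liver. The median of the list was 0.36.

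Of 31 tested genes known as targets of SMAD2 and SMAD3, 3 fell, 2 rose and 26 did not pass, beside 3.65% lower and 11.7% higher over all genes tested. The list had 21 negative log2 fold changes and a median of -0.32, against a median of 0.02 over all genes. It shares genes with other lists, as COL3A1 is also counted among the fallen stellate cell markers and BGN among the fallen genes of latent storage. COL3A1, a chain of fibrillar collagen, had 44.8, 73.0 and 90.1 CPM in young and 23.5, 29.4 and 23.8 CPM in old livers (-1.48, standard error 0.25, FDR = 0.0312 from edgeR). The matrix protein periostin, POSTN, went from 87.9 ± 21.7 to 30.8 ± 12.97 CPM (SD, n = 6 and n = 3, -1.51, FDR = 0.0447 from edgeR), and the proteoglycan BGN from 129 ± 24.5 to 57.9 ± 21.6 CPM (-1.15, FDR = 0.0535 from edgeR). VEGFA, the growth factor of endothelium, rose from 60.2 ± 13.02 to 124 ± 9.04 CPM (1.04, standard error 0.22, FDR = 0.0410 from edgeR), and WISP1, a relative of CTGF, by 2.69 (FDR = 0.0598 from edgeR) with 24.1 CPM in A and 3.54 and 4.08 in B and C.

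Leaving out single livers ended several of these calls. POSTN lost it without the 2.7 or 2.8-year liver (FDR = 0.102 to 0.104 from edgeR), VEGFA without the 2.7-year liver (FDR = 0.104 from edgeR), BGN without any of 4 young livers (FDR = 0.108 to 0.115 from edgeR) and WISP1 without A (1.22) or any of 5 young livers (FDR = 0.103 to 0.385 from edgeR). Without the 4.1-year liver WISP1 was at 3.41, and DESeq2 gave no p-value for it. Other well-known targets, named after their values were seen, did not pass. COL1A1 had a log2 fold change of -0.29 and ACTA2, the actin of myofibroblasts, one of -0.25 (FDR = 0.472 and 0.632 from edgeR), with ACTA2 at 3.24 CPM in A, 9.95 in B and 10.1 in C against 8.09 to 10.5 CPM in the young livers.

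Among the genes that store and release latent TGF-beta, LTBP4 rose and BGN and PLAT fell, while 22 of 25 did not pass (median -0.04). LTBP4, which anchors the latent ligand to matrix fibres, had 35.1, 45.5 and 65.0 CPM in young and 316, 72.1 and 80.1 CPM in old livers A, B and C (log2 fold change 1.70 with a standard error of 0.43, FDR = 0.0522 from edgeR). All old livers were above the young ones, but without A the value was 0.66 and not called (FDR = 0.194 from edgeR). The call was also lost without any of 4 young livers (FDR = 0.108 to 0.117 from edgeR), and DESeq2 gave no p-value for LTBP4. PLAT, the tissue activator of plasminogen, had 58.2 to 89.6 CPM in young and 13.9, 44.7 and 43.6 CPM in old livers (-1.06, FDR = 0.0925 from edgeR). It lost the call without A or any of 5 young livers (FDR = 0.144 to 0.162 from edgeR). LTBP1 and THBS1, named after their values were seen, had log2 fold changes of 0.06 and -0.90 (FDR = 0.907 and 0.182 from edgeR).

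Among co-receptors and regulators of the receptors, 3 of 23 rose and 2 fell (median 0.04). TGFBR3, or betaglycan, which presents TGFB2 to the receptor, had 38.0, 44.4 and 55.5 CPM in young and 24.4, 29.4 and 31.7 CPM in old livers (log2 fold change -0.68 with a standard error of 0.21, FDR = 0.0733 from edgeR). SMURF1, the ubiquitin ligase that SMAD7 brings to the receptor, had 13.1, 14.4 and 18.5 CPM in young and 30.3, 23.2 and 20.7 CPM in old livers (0.71, standard error 0.21, FDR = 0.0674 from edgeR). The old livers lay below all young ones in TGFBR3 and above all of them in SMURF1. Of all genes tested 17.8% had no overlap, and called genes are bound to show this more often. VPS39, a vesicle tether that also binds SMAD4 (1.13, FDR = 0.0462 from edgeR), and the deubiquitinase USP11 (1.42, FDR = 0.0594 from edgeR) were higher. Liver A had 105 CPM of VPS39, against 46.1 and 46.7 in B and C, and USP11 had only 7 to 78 counts per liver. CAV1, the coat protein of caveolae, was lower (-1.74, FDR = 0.0693 from edgeR). Each of the 5 lost the call without 4 to 6 of the livers taken singly (FDR = 0.101 to 0.224 from edgeR), A among these save for VPS39.

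Of 26 nuclear regulators of SMADs, 4 rose, none fell by edgeR and the median was 0.21, beside 11.7% higher and 3.65% lower over all genes tested. SKI, a repressor of SMAD complexes, had 20.6, 25.9 and 28.2 CPM in young and 52.9, 35.2 and 33.9 CPM in old livers (0.67, standard error 0.21, FDR = 0.0763 from edgeR), and the co-activator EP300 had 36.7, 44.6 and 64.3 against 167, 81.5 and 72.3 CPM (1.17, FDR = 0.0530 from edgeR). FOXH1, a DNA-binding partner of SMAD2 (1.41), and JUNB, a subunit of AP-1 (2.17), passed with overlapping groups (FDR = 0.0690 and 0.0784 from edgeR). FOXH1 was thinly covered, with 8 to 58 counts per liver. In all 4 genes A was the highest liver, and without A none was called, with log2 fold changes of 0.44 for SKI, 0.69 for EP300, 0.81 for FOXH1 and 1.17 for JUNB. They also lost the call without 4 or 5 of the young livers taken singly (FDR = 0.102 to 0.414 from edgeR with A included). In the branch that bypasses SMADs, TAB1, the activator of the kinase TAK1, rose (1.45, FDR = 0.0514 from edgeR, and 0.60 without A) and the kinase MAP2K6 fell (-1.10, FDR = 0.0814 from edgeR), while 19 of 21 did not pass. TAB1 was not called without A or any of 4 young livers, and MAP2K6 without any 1 liver other than the 4.1-year one (FDR = 0.105 to 0.156 from edgeR over both genes).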

How the data were processed

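The authors sequenced polyadenylated liver RNA single-end, mapped it with STAR (version 2.4.1d), keeping reads with a single place in the genome, and counted reads per gene of their own annotation with HTSeq, whose version and strand setting were not given in the sources used here. The deposited values are raw counts. Of 16339 rows, 93 whose order depends on upper and lower case, in which the counts of old and young livers do not follow each other, and 25 with symbols turned into dates were left out (0.319% and 0.133% of the counts), which touches no member. Coordinates and sequences are not given, because no annotation of the authors' build was used here.

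Counts were scaled by TMM and tested with edgeR 4.0.16 in R 4.3.3 (filterByExpr, glmQLFit with robust estimation, glmQLFTest) with age group as the only term and Benjamini-Hochberg adjustment over all 12277 genes tested. The standard error is the log2 fold change divided by the square root of F, and the 95% interval uses the degrees of freedom of the same fit. CPM are TMM-scaled. Ratios of counts had 0.5 added to both, and their adjusted p was held to a threshold of 0.05. The script was tested on simulated data. Alternatives were DESeq2 1.42.0, limma 3.58.1 voom with quality weights, other scalings and filters, FDR 0.05, all rows as deposited, and leaving out livers. Members were set by symbol, without use of their values, while lists and alternatives were chosen with earlier results of these data known. Named were all members, from each list the 4 genes of lowest p among those past the threshold, and others only where a count of 5 or fewer needed its names. Other genes were named after their values were seen, which is said beside them. Nothing says that animals were paired. The p-values rest on the spread between livers within an age group. As each animal gave 1 library, animal and library preparation cannot be told apart in this spread. A gene of the target list is not reported here by name.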

Additional observations from a re-analysis of the deposited data

Results flagged for a closer look

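In 48 genes, the 10 members and the genes of the pathway and marker lists that passed the threshold, the lowest or highest of the 6 young livers was compared with the others, and in 7 a single liver was separated by a gap above the 95% critical share of the range (0.625) on a scale of log2(CPM + 0.5). About 1 in 20 groups is expected to exceed it by chance. The 4.1-year liver was the lowest in SMAD2 (11.7 CPM), SMAD4 (13.8 CPM), MPEG1 (0.330 CPM), RELN (44.1 CPM) and RGS5 (2.58 CPM). COL3A1 was lowest in the 3.8-year liver (44.8 CPM) and USP11 in the 2.8-year liver (0.490 CPM). The 3 old livers were not compared in this way.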

How the results depend on the processing

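The 95% interval of the log2 fold change by edgeR included 0 in 7 of the 10 members, so a difference within those intervals could not be told from the spread between livers. Among members, the number higher was 0 with upper quartile scaling, without a filter and at FDR 0.05, and 0 to 1 when leaving out 1 liver. The number lower was 1 with DESeq2, 2 with voom, 2 without A and the 4.1-year liver, and 0 to 1 when leaving out 1 liver. Over all genes, 1437 were higher and 448 lower. These were 1070 lower with DESeq2, 2511 higher and 2052 lower with voom, 330 and 90 at FDR 0.05, 1451 lower without A and the 4.1-year liver, and 125 to 2071 higher and 62 to 862 lower when leaving out 1 liver. Of the wider pathway, 20 were lower with DESeq2, 36 higher and 31 lower with voom, 25 lower without A and the 4.1-year liver, 4 higher and 5 lower at FDR 0.05, and 1 to 23 higher and 4 to 15 lower when leaving out 1 liver. The cause of these shifts was not tested.

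The sign of 4 members turned. When leaving out 1 liver, TGFB1 ranged from -0.40 to 0.062, TGFB2 from -0.34 to 0.25, SMAD3 from -0.11 to 2.15 and SMAD4 from -0.38 to 0.24, each turning without A, and TGFB2 also without the 2.7-year liver (-0.07). TGFB2 was at -0.18 with voom, -0.045 with upper quartile scaling and -0.25 without A and the 4.1-year liver. SMAD4 was at 0.10 with voom and 0.090 without A and the 4.1-year liver. Without A and the 4.1-year liver the log2 differences of TGFB2/TGFB1 and CTGF/TGFB1 were -0.23 and -0.26. When leaving out 1 liver they ranged from -0.38 to 0.62 for TGFB2/TGFB1, -0.39 to 0.46 for CTGF/TGFB1 and -0.10 to 0.37 for TGFBR1/TGFBR2. The SMAD2/SMAD3 ratio ranged from -2.42 to -0.21, and the SMAD7/SMAD4 ratio stayed positive, from 0.93 to 1.15. No paired analysis was made, because old and young livers came from different animals.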
